A study of Solanum lycopersicum with 12 samples.

Results

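The 162 loci described here carried small RNAs whose most frequent length was 22 nt both in tomato callus and in the cotyledons from which the callus was grown. They were chosen from the 34688 gene loci of the deposited count table by read length. Loci on unplaced sequence (chromosome 0) were left out, and reads of 18 to 26 nt were pooled over the 9 callus libraries and over the 3 cotyledon libraries. A locus was kept when callus held at least 30 reads, cotyledon held at least 10 reads, and 22 nt was the single most frequent length in both, with at least 25% of the reads in each. Of the 8200 placed loci that met both read minimums, 1.98% passed. Under the same read minimums, but without the 25% limit, 915 loci had 21 nt and 3059 loci had 24 nt as the most frequent length in both tissues.

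In plants, small RNAs are cut from double-stranded RNA by Dicer-like enzymes, each of which sets a typical length. DCL4 makes 21-nt, DCL2 makes 22-nt and DCL3 makes 24-nt small interfering RNAs, and some microRNAs are 22 nt long as well. Small RNAs of 22 nt are known for recruiting RNA-dependent RNA polymerase to the transcripts they bind, which starts a further round of small RNA production, whereas those of 24 nt guide DNA methylation. The deposited files pair the loci with identifiers only, and none of the 162 identifiers matched the RefSeq gene table at hand, so no gene name, function or sequence is attached to any locus here. What was counted is small RNA placed on a locus and not its mRNA, and the tissue was therefore not checked against marker genes.

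The libraries came from tomato (Solanum lycopersicum) callus after 12, 14 and 16 days on SIM medium and from cotyledons, the seed leaves, at day 0. Cotyledons were cut from seedlings 6 days after sowing, and each of the 4 groups held 3 libraries. The labels named no cultivar, genotype or further treatment. Separate cultures for the replicates are not stated either, so a p-value here measures spread among libraries that may be technical. Gene loci held 456744 to 698312 reads per library. On the second principal component 4 libraries stood apart from the others of their tissue, namely day 12 replicate 3, day 14 replicate 1 and day 16 replicate 3 of callus and cotyledon replicate 1, and results are also given without them.

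The rule left loci of very unequal depth. The 162 loci held 303666 callus reads and 96688 cotyledon reads, with a median of 131.5 reads per locus in callus and 28 in cotyledon. The locus with most reads, Solyc12g099270.2, alone held 39.2% of these reads in callus and 58.3% in cotyledon. The first 12 loci in each tissue held 76.6% in callus and 88.9% in cotyledon. At the other end, 71 loci had under 100 callus reads and 58 had under 20 cotyledon reads, so their length shares rest on few reads. Together the loci held 5.12% to 6.49% of the gene reads in callus libraries and 5.70% to 6.48% in cotyledon libraries. Their part of the 22-nt gene reads was 24.4% to 32.8% in callus libraries and 25.2% to 32.8% in cotyledon libraries. Both ranges overlapped between the tissues. Against library totals recovered from the authors' TPM values the tissues did not overlap. The 22-nt reads on these loci were then 0.419% to 0.588% of the total in callus libraries and 0.722% to 0.788% in cotyledon libraries, lower in every callus library. That separation rested on Solyc12g099270.2, and with it taken out the tissues overlapped on this scale too. In cotyledon libraries it held 13296 to 18336 of these 22-nt reads, which were 21831 to 26893 in all. In callus libraries it held 6698 to 14264 of them, which were 17917 to 25589 in all. Without Solyc12g099270.2 the other 161 loci held 3.02% to 4.35% of the gene reads in callus libraries and 2.41% to 2.72% in cotyledon libraries, and these ranges did not overlap. Against the recovered library totals, however, the reads of all lengths on the 161 loci did overlap between the tissues.

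The share of reads at 22 nt chose the loci and is given as a description. Its median over the loci was 42.1% in callus (range 25.0% to 98.7%) and 50.0% in cotyledon (26.1% to 98.8%). It was lower in callus than in cotyledon at 120 of the 162 loci. Where cotyledon reads were few, the rule favoured loci whose cotyledon share came out high. This count and the medians therefore lean towards a lower share in callus. Loci almost purely of 22 nt were few. In both tissues 44 loci had at least 50% of their reads at 22 nt, 4 had at least 80%, and 2 had at least 90%. Those 2 were Solyc04g009070.1, with 98.7% in callus and 98.8% in cotyledon, and Solyc11g162250.1, with 97.3% in callus and 96.3% in cotyledon. The other 2 of the 4 were Solyc06g008410.1 (83.4% in callus and 82.1% in cotyledon) and Solyc12g096210.2 (80.1% in callus and 83.8% in cotyledon), Solyc06g008410.1 being picked after its values were seen. At the 25% limit, Solyc03g113020.3 and Solyc10g049850.3 were just inside, each with 25.0% in callus, and with 37.5% and 40% in cotyledon. Solyc04g074240.3 and Solyc12g044720.2 were just outside, each with 24.7% in callus, and with 27.3% and 41.7% in cotyledon. A further 79 loci had 22 nt as the most frequent length in both tissues but fell under the 25% minimum.

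Most of the loci mixed 22 nt with a second length. In callus the second most frequent length was 21 nt at 84 loci, 24 nt at 57, 23 nt at 10 and 20 nt at 8. In cotyledon it was 21 nt at 73 loci, 24 nt at 48 and 23 nt at 12. Solyc07g005420.2 was the clearest case of a pair of neighbouring lengths. Its 23-nt share was 39.3% to 48.1% in callus libraries (median 43.3%), against 26.4%, 33.9% and 34.2% in cotyledon libraries. Its 22-nt share was 49.6% to 57.1% in callus libraries (median 53.3%), against 58.3%, 63.6% and 69.6% in cotyledon libraries. Lengths of 21 and 24 nt were close to absent from it, with 21 nt at a median of 1.27% in callus and 1.27% in cotyledon and 24 nt at 0.310% in callus and 1.64% in cotyledon.

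The loci lay on every chromosome, from 7 on chromosome 10 to 18 on chromosome 3. Some stood close together. Within 5 identifiers of another of the loci lay 36 of them, in 16 runs. The run with most reads went from Solyc04g014560.4 to Solyc04g014640.2 and held 4 loci with 43238 callus reads and 14301 cotyledon reads. A run of 3 from Solyc01g108950.3 to Solyc01g109000.1 held 12603 callus reads and 1596 cotyledon reads, and a run of 3 from Solyc08g160240.1 to Solyc08g160280.1 held 5646 callus reads and 534 cotyledon reads. Loci whose identifier number after the g is at least 150000 made up 26 of the 162 (16.0%), compared with 9.34% of all placed loci, 4.71% of the loci meeting the read minimums, 1.97% of the 21-nt loci and 8.43% of the 24-nt loci. Solyc07g160400.1 and Solyc08g160250.1, on different chromosomes, had near-identical reads. Over the columns of the count table, 1 per length and library, their counts correlated at r = 0.993, a description over columns that share libraries, and their totals were 3281 and 3451 reads. The sources used here do not say how reads with several matches were counted, so the values of such a pair may share reads.

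More of the 22-nt loci had higher than lower total reads in callus. A test of the total is separate from the rule, which fixed the length shares and a minimum of reads in each tissue but not the difference between tissues. The minimums keep out loci that are silent in either tissue. In edgeR's quasi-likelihood test of all callus against cotyledon, 117 of the 162 loci passed the filter on low counts, 48 rose and 6 fell (Benjamini-Hochberg adjusted p under 0.05 over the 6729 loci tested). Of all loci tested, 17.6% rose and 23% fell, and of the 5747 tested loci that met the read minimums 13.4% rose and 23% fell. The median log2 change was 0.76 over the 117 loci, 0.10 over all loci tested and 0.04 over those meeting the minimums. These values lean towards rises, because a locus with few cotyledon reads could pass the filter only through callus. Of the 58 loci with under 20 cotyledon reads 21 passed, with log2 changes of 0.13 to 4.08, and 8 of them rose and 0 fell. Without a filter all 162 loci could be tested. There 43 rose and 9 fell, compared with 7.23% and 15.7% of the 8200 loci meeting the minimums, and the median log2 change was 0.41 for the 162 and -0.07 for the 8200. In bulk tissue, fewer cells of a type and less RNA per cell cannot be told apart.

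**Figure D1:**
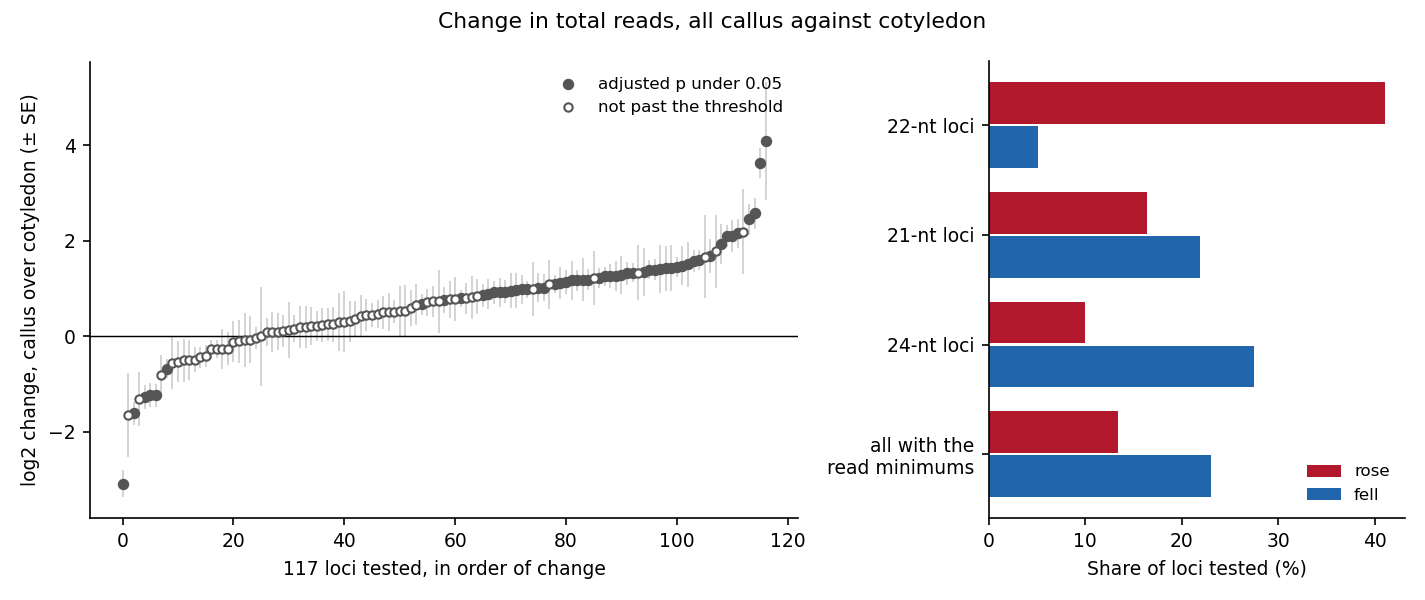
Left, log2 change in total reads of callus over cotyledon with its SE for the 117 loci tested, in order of change; filled points had an adjusted p under 0.05 in edgeR. Right, the share of tested loci that rose and that fell among the 22-nt loci (48 and 6 of 117), the 21-nt loci (122 and 163 of 744), the 24-nt loci (246 and 678 of 2467) and all loci with the read minimums (769 and 1321 of 5747).

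The 2 classes closest in kind, which were not held to the 25% limit, had more falls than rises in this comparison. Among the 21-nt loci 122 of 744 rose and 163 fell, or 16.4% and 21.9% of those tested. Among the 24-nt loci 246 of 2467 rose and 678 fell, or 9.97% and 27.5%. The order was not the same throughout for the 21-nt loci, whose median log2 change was 0.13. At day 12 they had 123 rises and 114 falls, and those with under 100 cotyledon reads had 88 rises and 58 falls over all callus. Among the 22-nt loci with under 100 cotyledon reads, 78 were tested, 25 rose and 1 fell, beside 14.6% and 12.9% of all tested loci of that depth that met the minimums. The 78 include the 21 with under 20 cotyledon reads, which passed the filter only through callus and gave 8 of the 25 rises. The other 57 had 17 rises and 1 fall. Counts at this depth therefore lean towards rises. The filter removed none of the 39 loci with 22 nt most frequent and at least 100 cotyledon reads. Of these, 23 rose and 5 fell, with a median log2 change of 0.98. Of the 1455 tested loci of any main length with the same depth, 9.76% rose and 52.6% fell, with a median of -0.74. The choice by cotyledon reads itself favours falls, and it was the same for both sets. At 39 of the 117 loci every callus library lay above every cotyledon library, and at 5 every one lay below. The shares of all loci tested were 11.8% above and 17.6% below, and of those meeting the minimums 8.8% and 16.9%.

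What the reads were scaled to, and which reads or libraries were counted, moved the balance of rises and falls but not its side. With the recovered library totals as the scale, 33 of the 117 loci rose and 12 fell, beside 11.8% and 27.9% of all loci tested. The median log2 change was then 0.48 over the 117 loci and -0.16 over all loci tested. When only 22-nt reads were counted, 70 of the loci passed the filter, 26 rose and 8 fell, beside 21.3% and 24.6% of the 781 loci tested. The rule used these same 22-nt reads and did not choose the 781, so this setting is no separate check. Without the 4 libraries that stood apart, 33 rose and 6 fell, beside 12.7% and 19.5% of the 6932 loci then tested.

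The rises included many loci of the runs and of the high identifier numbers. Of the 26 loci with identifier numbers of at least 150000, all of which were tested, 16 rose and 1 fell. Of the 36 loci in runs, 18 rose and 0 fell, with 29 tested. Rises were frequent among the remaining 22-nt loci too. With lower identifier numbers 91 were tested, 32 rose and 5 fell, and outside runs 88 were tested, 30 rose and 6 fell. The shares of all loci tested were 17.6% and 23%. The sets of high identifier numbers and of runs were formed with the values known and overlap one another. Their difference from the other 22-nt loci was not tested. Whether neighbouring loci of a run share reads is not known, so their calls need not be separate.

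Solyc12g099270.2 was the most abundant of the 22-nt loci and had lower counts in callus. It had 16745 to 40644 CPM (counts scaled by TMM to the reads of a library at the loci tested) in callus libraries (median 25745), against 38114, 42393 and 43374 in cotyledon libraries. Only replicate 1 of callus day 16 reached the cotyledon range, and the groups overlapped through it. The fitted level was 0.626-fold that of cotyledon (log2 change -0.68 ± 0.21 SE, adjusted p = 0.0140, edgeR). The log2 change was -0.62 without cotyledon replicate 1 and -0.65 without replicate 3, close to the value with all libraries, while the adjusted p was then 0.0641 and 0.0575. Its reads were 73.4% of 22 nt in callus and 80.3% in cotyledon, with 21 nt second in both. Its part of the reads on the 162 loci was 29.8% to 53.0% in callus libraries and 54.4% to 62.1% in cotyledon libraries.

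**Figure D2:**
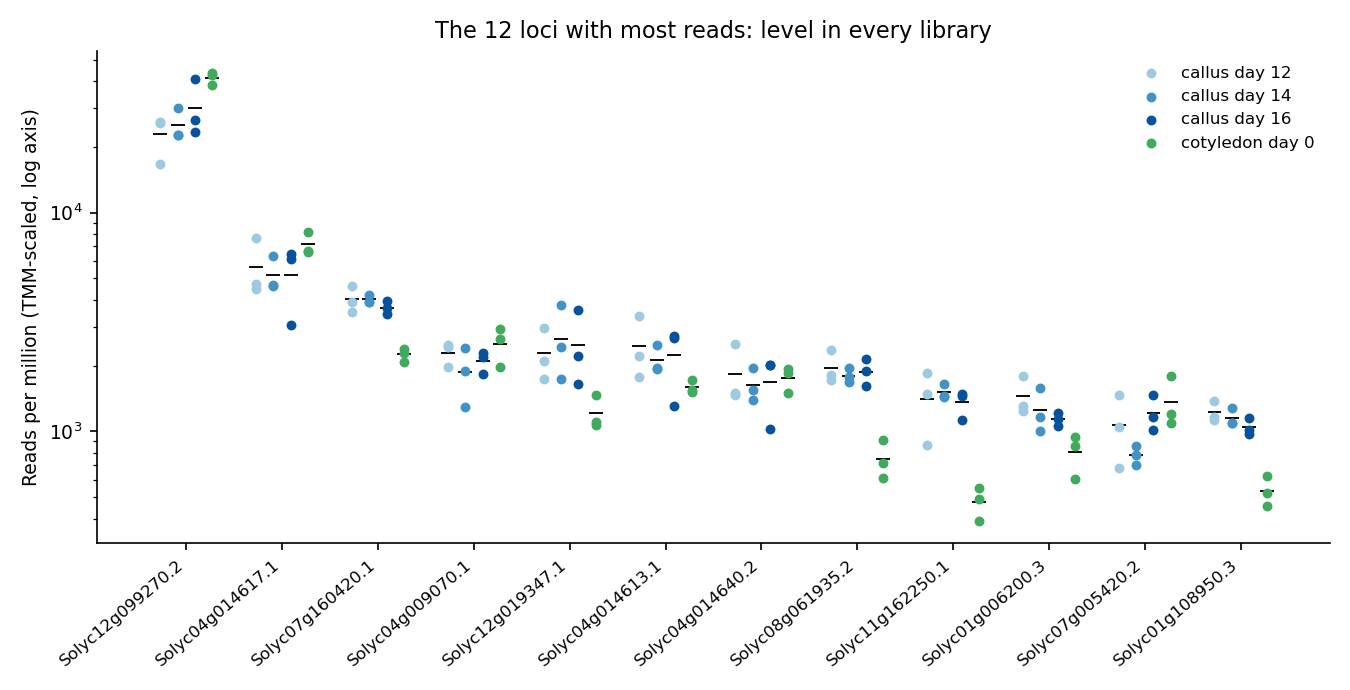
Level in TMM-scaled CPM (log axis) in every library for the 12 loci with most reads, with callus days 12, 14 and 16 to the left of cotyledon day 0 and a bar at each group mean of 3 libraries. Solyc07g160420.1, Solyc12g019347.1, Solyc08g061935.2, Solyc11g162250.1, Solyc01g006200.3 and Solyc01g108950.3 lay higher in every callus library than in every cotyledon library.

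The loci of the run on chromosome 4 did not move as 1. Solyc04g014617.1 had 3059 to 7671 CPM in callus (median 4739), against 6587, 6694 and 8165 in cotyledon, and its log2 change of -0.42 ± 0.23 SE missed the threshold (adjusted p = 0.156, edgeR), which it passed with library totals as the scale (log2 change -0.69, adjusted p = 0.0289). Solyc04g014613.1 had 1304 to 3352 CPM in callus (median 2211), against 1509, 1554 and 1710 in cotyledon, with a log2 change of 0.51 ± 0.24 SE (adjusted p = 0.102, edgeR). The lowest callus value of both came from replicate 1 of day 16, and without that library Solyc04g014613.1 passed the threshold (log2 change 0.62, adjusted p = 0.0298, edgeR). Solyc04g014640.2 had 1026 to 2512 CPM in callus (median 1545), against 1491, 1857 and 1922 in cotyledon, with a log2 change of -0.04 ± 0.23 SE (adjusted p = 0.914, edgeR). Its 22-nt reads alone fell (log2 change -0.58, adjusted p = 0.0287, edgeR). The fourth locus of the run, Solyc04g014560.4, had 70 callus reads and 13 cotyledon reads and did not pass the filter.

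The length profile of that run differed between the tissues at all of its 3 deeper loci. The 24-nt share of Solyc04g014613.1 was 26.01% to 37.6% in callus libraries (median 31.7%), against 13.8%, 17.5% and 17.99% in cotyledon libraries. For Solyc04g014640.2 it was 22.2% to 34.7% in callus (median 25.3%), against 8.58%, 12.1% and 12.9% in cotyledon. For Solyc04g014617.1, which was richest in 22 nt, it was 6.79% to 12.1% in callus (median 9.65%), against 2.11%, 2.70% and 3.14% in cotyledon. In none of these 3 did the callus and cotyledon libraries overlap.

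Of the 12 loci with most reads, 6 had higher counts in every callus library than in every cotyledon library and passed the test. Solyc07g160420.1 had 3440 to 4607 CPM in callus (median 3914), against 2085, 2289 and 2384 in cotyledon, a 1.73-fold rise (log2 change 0.79 ± 0.18 SE, adjusted p = 0.00153, edgeR). Solyc08g061935.2 had 1606 to 2345 CPM in callus (median 1804), against 611, 717 and 910 in cotyledon, a 2.51-fold rise (log2 change 1.33 ± 0.20 SE, adjusted p = 4.60e-05, edgeR). Both loci had their 3 cotyledon libraries below the lowest callus library. Solyc01g108950.3 had 970.5 to 1376 CPM in callus (median 1129), against 457, 521 and 626 in cotyledon, a 2.13-fold rise (log2 change 1.09 ± 0.19 SE, adjusted p = 0.000162, edgeR). Solyc12g019347.1 had 1645 to 3798 CPM in callus (median 2207), against 1067, 1107 and 1475 in cotyledon, a 2.02-fold rise (log2 change 1.02 ± 0.28 SE, adjusted p = 0.00691, edgeR). Counted by 22-nt reads alone it missed the threshold (log2 change 0.75, adjusted p = 0.0621, edgeR). Its spread within callus was wide, with replicate 1 of day 14 and replicate 3 of day 16 highest, both among the libraries that stood apart.

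The 2 loci made almost purely of 22 nt differed from each other. Solyc11g162250.1 had 866 to 1857 CPM in callus (median 1456), against 391, 492 and 552 in cotyledon, a 2.98-fold rise (log2 change 1.57 ± 0.24 SE, adjusted p = 4.11e-05, edgeR). Solyc04g009070.1 had 1294 to 2483 CPM in callus (median 2198), against 1979, 2658 and 2923 in cotyledon, and its log2 change of -0.28 ± 0.20 SE missed the threshold (adjusted p = 0.287, edgeR), which it passed with library totals as the scale (log2 change -0.55, adjusted p = 0.0345). Their 22-nt shares hardly moved between libraries, at 95.9% to 98.5% in callus and 95.3% to 98.0% in cotyledon for Solyc11g162250.1. For Solyc04g009070.1 the share was 98.3% to 99.4% in callus and 98.4% to 99.2% in cotyledon. The difference in change between the 2 loci was not tested.

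At Solyc01g006200.3 the 22-nt share was lower and the 21-nt and 24-nt shares higher in every callus library. Its 22-nt share was 33.6% to 50.9% in callus libraries (median 45.0%), against 63.0%, 66.3% and 67.0% in cotyledon libraries. Its 21-nt share was 33.3% to 50.5% in callus (median 35.9%), against 24.8%, 27.7% and 30.1% in cotyledon. Its 24-nt share was 2.91% to 9.16% in callus (median 4.35%), against 0.233%, 1.98% and 2.58% in cotyledon. Its total was 1005 to 1782 CPM in callus (median 1217), against 605, 862 and 938 in cotyledon, a 1.59-fold rise (log2 change 0.66 ± 0.21 SE, adjusted p = 0.0174, edgeR). Its 22-nt reads alone did not follow, with a log2 change of 0.07 (adjusted p = 0.813, edgeR). The call on the total was also lost with library totals as the scale (adjusted p = 0.167), without cotyledon replicate 1 (0.109) and without the 4 libraries that stood apart (0.0543). Solyc07g005420.2, the locus of 22 and 23 nt, had 683 to 1472 CPM in callus (median 1013), against 1095, 1200 and 1794 in cotyledon, and did not pass the test (log2 change -0.44 ± 0.22 SE, adjusted p = 0.126, edgeR). It passed with library totals as the scale (log2 change -0.70, adjusted p = 0.0225) and with 22-nt reads alone (log2 change -0.73, adjusted p = 0.0217).

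The largest rises among loci with separated groups were seen at loci of moderate depth. Solyc01g014740.1 had 757 to 1679 CPM in callus (median 1009), against 65.8, 84.0 and 118 in cotyledon, a 12.3-fold rise (log2 change 3.62 ± 0.31 SE, adjusted p = 4.97e-08, edgeR). Its cotyledon level rests on 121 reads in all, its callus level on 5115. Solyc08g160030.1 had 90.7 to 359 CPM in callus (median 179), against 29.7, 31.9 and 39.3 in cotyledon, a 5.96-fold rise (log2 change 2.58 ± 0.33 SE, adjusted p = 6.18e-06, edgeR). Its group means were 132, 244 and 258 CPM at callus days 12, 14 and 16. In edgeR's test among callus days its adjusted p was 0.495. The 2 remaining ones are neighbours by identifier. Their counts ran alongside each other over the libraries, and whether they share reads is not known. Solyc03g095300.5 rose 5.45-fold, with 68.3 to 144 CPM in callus (median 93.8), against 13.1, 14.8 and 21.9 in cotyledon (log2 change 2.45 ± 0.32 SE, adjusted p = 8.66e-06, edgeR). Solyc03g095290.3 rose 4.44-fold, with 72.7 to 171 CPM in callus (median 104), against 14.8, 21.8 and 35.9 in cotyledon (log2 change 2.15 ± 0.31 SE, adjusted p = 2.12e-05, edgeR). The near-identical pair Solyc07g160400.1 and Solyc08g160250.1 rose 2.63-fold and 2.74-fold (adjusted p = 2.10e-05 and 1.92e-05, edgeR), and the reads of both may be shared.

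Falls were few, and 5 of the 6 were seen at loci whose callus libraries all lay below cotyledon. Solyc12g062560.1 had 13.1 to 47.4 CPM in callus (median 26.4), against 204, 245 and 306 in cotyledon, 0.118-fold (log2 change -3.09 ± 0.28 SE, adjusted p = 8.53e-08, edgeR). It held 6 to 30 reads in each callus library, against 99, 102 and 140 in the cotyledon libraries. Solyc12g096210.2, at over 80% of 22 nt in both tissues, had 331 to 824 CPM in callus (median 731), against 1393, 1969 and 2274 in cotyledon, 0.326-fold (log2 change -1.62 ± 0.24 SE, adjusted p = 3.93e-05, edgeR). These 2 loci are on chromosome 12, as is Solyc12g099270.2. That chromosome held 13 of the loci, among them Solyc12g019347.1, which rose, and falls were not compared between chromosomes. Solyc09g061390.1 had 56.4 to 150 CPM in callus (median 92.4), against 231, 233 and 284 in cotyledon, 0.414-fold (log2 change -1.27 ± 0.26 SE, adjusted p = 0.000745, edgeR). Solyc05g047590.5 had 19.8 to 49.6 CPM in callus (median 29.98), against 71.7, 72.0 and 73.8 in cotyledon, 0.424-fold (log2 change -1.24 ± 0.25 SE, adjusted p = 0.000741, edgeR). Solyc10g162760.1 was separated as well, with 76.1 to 198 CPM in callus, against 245, 316 and 325 in cotyledon. It fell with a log2 change of -1.23 (adjusted p = 0.000495, edgeR) and is named to complete the set. The remaining fall was that of Solyc12g099270.2, whose libraries overlapped.

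Over the 3 callus days the calls were much alike in number. Against the same 3 cotyledon libraries, day 12 had 45 rises and 5 falls among the 117 loci, beside 14.4% and 19.2% of all loci tested. Day 14 had 35 rises and 7 falls, beside 14% and 17.3%. Day 16 had 38 rises and 5 falls, beside 13.4% and 17.5%. The median log2 change of the 117 loci was 0.85, 0.69 and 0.69 on these days. Rises at all 3 days were called at 29 loci and falls at 4, beside 8.6% and 13.3% of all loci tested. None rose at one day and fell at another, and 60 of the tested loci were called at no day. The 3 comparisons share their cotyledon libraries, so these counts are not independent of each other. With library totals as the scale, day 12 had 40 rises and 5 falls, beside 12.3% and 20.2% of all loci tested. Day 14 then had 25 rises and 11 falls, beside 8.41% and 23.7%, while day 16 had 22 rises and 8 falls, beside 7.71% and 23.2%.

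Among the callus days themselves, 0 of the 117 loci passed the test over days 12, 14 and 16 (edgeR), and 0 of the 6729 loci tested did. DESeq2 also called 0. At an unadjusted p under 0.05 there were 3 of the 117 (edgeR), namely Solyc04g160230.1, Solyc08g160030.1 and Solyc10g049850.3, beside 547 of all 6729. Without the filter on low counts 4 of the 162 loci were called, beside 0.291% of the 32258 loci with a read, and they are described among the other observations.

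A share of 24-nt reads that was higher in callus ran through many of the 22-nt loci. The rule used 22-nt shares, which limit every other length at the same locus, so these shares are given without a test. In the summed reads of the loci other than Solyc12g099270.2, 24 nt made up 15.04% to 19.5% in callus libraries and 6.89% to 9.90% in cotyledon libraries. The 22-nt share of the same reads was 55.4% to 60.1% in callus and 64.6% to 65.8% in cotyledon. In neither length did the tissues overlap. Of the loci with at least 100 cotyledon reads, 33 of 39 had a higher 24-nt share and 32 of 39 a lower 22-nt share in callus. The same counts were not taken over all loci of that depth, so whether these differ from loci in general is not known. Over all gene reads the mean 22-nt share was 15.2%, 13.4% and 13.9% at callus days 12, 14 and 16, and 16.0% in cotyledon.

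**Figure D3:**
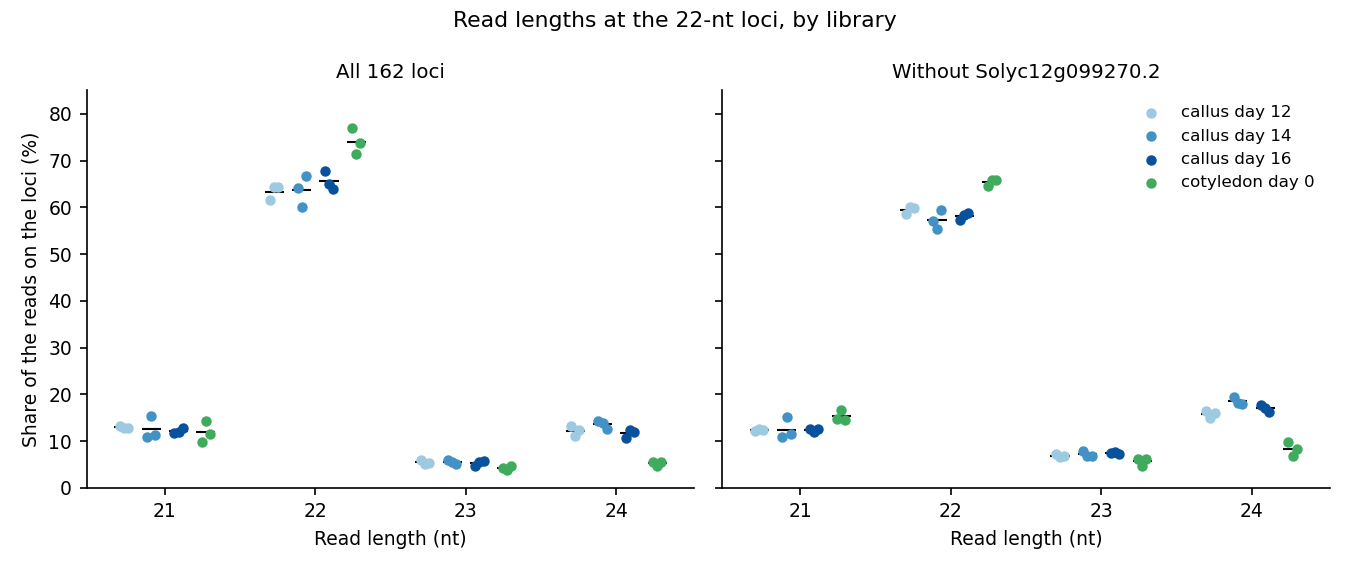
Share of the reads on the loci that were 21, 22, 23 or 24 nt long, in each library (points) with the mean of 3 libraries (bars), for all 162 loci and without Solyc12g099270.2. Callus days 12, 14 and 16 stand left of cotyledon day 0; without that locus the 24-nt share was 15.04% to 19.5% in callus and 6.89% to 9.90% in cotyledon.

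By single locus, the 24-nt and 22-nt shares that separated went the same way, but the tissues overlapped at most loci. Of the 22-nt loci, 39 had at least 20 reads in every library. The 24-nt share of 14 of them was higher in every callus library than in every cotyledon library, and of 0 lower. Of the 922 loci of any main length with that depth, 4.34% were higher and 5.64% lower. The rule chose the 39 by their 22-nt share but not the 922, so the 2 sets are unlike in lengths. The percentages set beside the counts are a description, and no difference from them was tested. The 22-nt share was lower in every callus library at 8 of the 39 and higher at 0, beside 4.88% and 3.8%. The 23-nt share was higher at 6 and lower at 0, beside 1.95% and 3.58%, and the 21-nt share was higher at 1 and lower at 7, beside 7.7% and 3.47%. The 23-nt count depended on single libraries, since without cotyledon replicate 2 it was 10 higher and 1 lower, beside 4.45% and 7.59%. Without the 4 libraries that stood apart it was 12 higher and 3 lower, beside 6.83% and 9.002%. Without the 4 libraries that stood apart the 24-nt share was higher at 16 of the 39, and 12.7% of the 922 loci were then higher as well, since fewer libraries overlap less.

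**Figure D4:**
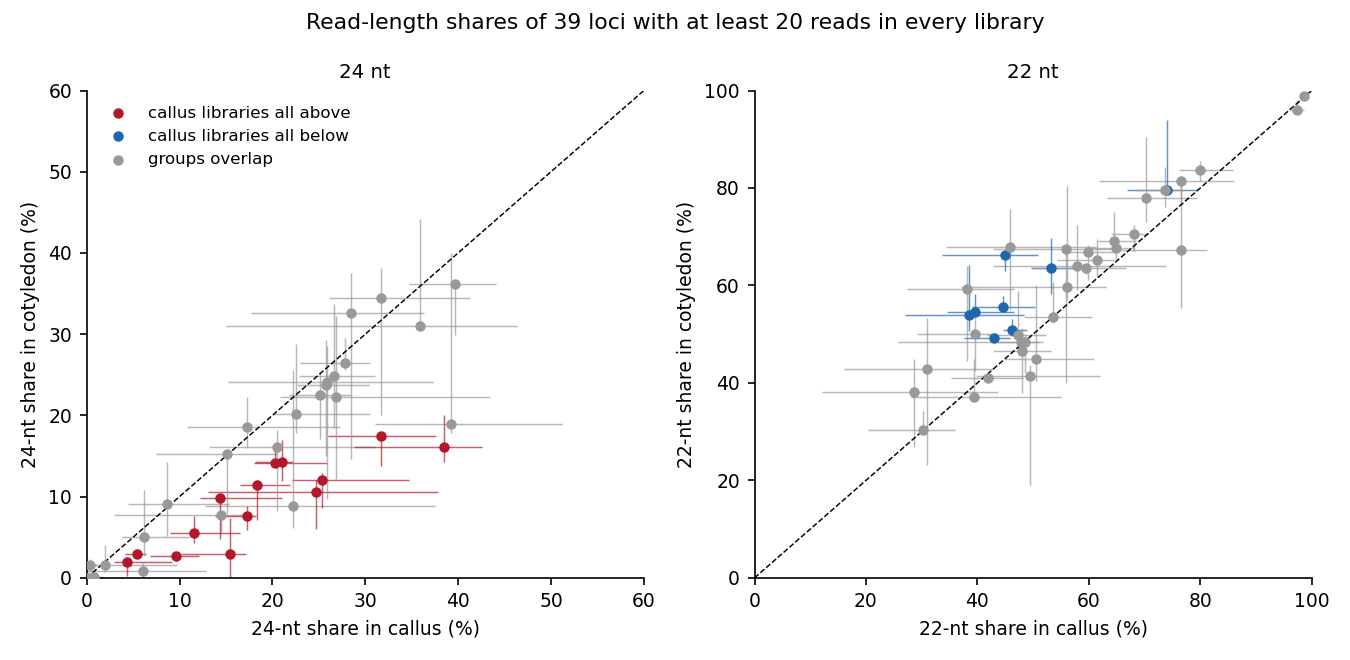
Share of 24-nt reads (left) and of 22-nt reads (right) at the 39 loci with at least 20 reads in every library, callus on the x axis and cotyledon on the y axis; points are medians over libraries, lines run from the lowest to the highest library, and the dashed line marks equal shares. The 24-nt share lay higher in every callus library at 14 loci, and the 22-nt share lower at 8.

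The 14 loci included Solyc12g099270.2, Solyc07g160420.1, Solyc08g061935.2 and Solyc01g014740.1 as well as the 3 of the run on chromosome 4. In Solyc07g160420.1 the 24-nt share was 13.8% to 18.2% in callus (median 17.3%), against 5.91%, 7.63% and 8.80% in cotyledon, while 21 nt was 6.996% to 9.05% in callus and 13.2% to 14.3% in cotyledon. In Solyc01g014740.1 24 nt was 10.2% to 17.2% in callus (median 15.4%), against 0%, 2.94% and 7.41% in cotyledon. The cotyledon values of Solyc01g014740.1 rest on 121 reads. Solyc12g099270.2 shifted by less, with 4.15% to 6.42% in callus (median 5.45%), against 2.79%, 2.95% and 3.43% in cotyledon. Solyc12g019347.1, which had the highest 24-nt share of the 12 abundant loci in both tissues, did not separate, with 34.7% to 44.1% in callus (median 39.7%), against 29.9%, 36.1% and 36.4% in cotyledon. Solyc01g108950.3 likewise overlapped, with 22.7% to 30.5% in callus (median 25.7%), against 14.98%, 23.7% and 29.3% in cotyledon.

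The authors' deposited table of 22-nt reads held every one of the 162 loci. The rule used 22-nt reads of the same libraries, so the counts below are no separate check. For day 12 against day 0 the authors' deposited table gave an adjusted p to 136 of them, of which 18 rose and 4 fell at 0.05, beside 4.11% and 5.64% of the 2800 loci with an adjusted p. For day 14 against day 0 the authors' deposited table had 18 rises and 5 falls among 126, beside 2.95% and 5.9%. For day 16 against day 0 the authors' deposited table had 17 rises and 3 falls among 124, beside 3.78% and 7.34%. Between callus days the authors' deposited table called 0 of the 162. For Solyc01g014740.1 the log2 change of 22-nt reads in the authors' deposited table was 3.55 at day 12, 3.54 at day 14 and 3.39 at day 16. For Solyc12g099270.2 the authors' deposited table gave -1.07 for day 12, with an adjusted p of 2.63e-07, and -0.78 for day 14, with an adjusted p of 0.00898. Its day 16 value in the authors' deposited table was -0.48, with an adjusted p of 0.209.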

How the data were processed

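Small RNA reads of 9 callus and 3 cotyledon libraries were analysed from 3 tables. The authors deposited raw counts per locus for each of 9 read lengths in each library, in 108 columns per the file headers. The authors also deposited, for 22-nt reads, a log2 change with its p-value raw and adjusted, used only where named. The authors' TPM table of sense and antisense reads, a deposited unit of other kind, served to recover library totals of 2769024 to 4799134 reads; the sources used here do not say what that total counts. Tools were fastp, Bowtie and DESeq2 per the submitters' processing notes. The sources used here give no versions, settings, genome build or handling of reads with several matches. Library products were amplified by PCR and sized on a gel, per the labels' protocols, which mention no molecular identifiers, so reads need not stand for separate molecules.

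The sample titles gave groups and replicate numbers. Counts were summed over 18 to 26 nt and tested with edgeR 4.0.16 (R 4.3.3; TMM, filterByExpr, quasi-likelihood F test over all 12 libraries in 4 groups, Benjamini-Hochberg adjustment over 6729 loci, threshold 0.05). The common biological coefficient of variation was 0.333. All callus is the mean of the 3 callus groups. CPM are counts scaled by TMM to the reads at loci tested, and the SE is that of the fitted log2 change. DESeq2 1.42.0 was an alternative. The test was tried on simulated data. No library was a copy of another, since replicates differed beyond counting noise (chi-square per degree of freedom 4.79 to 20.6). The replicate numbers were not used to pair the samples in the main test, and whether they mark pairs is not known.

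Named loci were the 12 with the highest mean of group mean CPM; the 4 largest rises and falls among called loci with at least 5 CPM and no overlap of libraries; the loci nearest the 25% limit; and near-identical loci (r of at least 0.99, totals within 5%). Others were picked after their values were seen. The loci, the lists and these rules were chosen with earlier results of these data known. Lists of genes by annotation could not be applied, because no identifier was annotated, and no promoter, protein or RNA sequence was used here.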

Additional observations from a re-analysis of the deposited data

How the results depend on the processing

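Counts of called loci stayed within 1.5 times of the reported ones under DESeq2, RLE scaling, library totals, no filter, the replicate term, 1 locus per near-identical set, at least 40% of 22 nt and the 4 libraries left out, except as follows. With 22-nt reads only, 27 loci were called at day 12 in place of 50, and 34 for all callus in place of 54, where 70 rather than 117 loci were tested. Without the filter 4 loci were called among callus days in place of 0. Leaving out each library in turn gave 39 to 52 calls at day 12, 35 to 44 at day 14, 33 to 45 at day 16, 42 to 58 for all callus and 0 among callus days. Without the 4 libraries that stood apart the counts were 39, 35, 31, 39 and 0. The replicate number as an added block gave 49, 39, 41, 52 and 0 calls. Of 18 pairs of libraries with the same number, 4 correlated above 0.1 (range -0.26 to 0.20). Whether libraries with the same number share more than the number cannot be told from such correlations. No call changed sign at the 20 loci named for their reads or for the size of their change. The signs of the other called loci were not compared. The count of loci with a higher 24-nt share in every callus library, with alternatives chosen after seeing the data, was 16 of 59 with 10 reads per library, 11 of 25 with 50, and 14 to 16 of 39 without each library. Depth limits the 58 loci with under 20 cotyledon reads most. The 21 of them that passed the filter did so through callus, and all had a positive log2 change.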

Other observations

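A few of the 22-nt loci varied between libraries of the same group by far more than the rest. They are named because of that spread, seen in the data, and no cause was tested. Solyc01g160590.1 had 72.0 to 1578 CPM in callus (median 305), against 35.9, 48.0 and 311 in cotyledon. Solyc02g160320.1, on another chromosome, had 38.9 to 1232 CPM in callus (median 200), against 23.9, 26.2 and 245 in cotyledon. Solyc10g045777.2 had 35.04 to 857 CPM in callus, against 2.18, 19.95 and 126 in cotyledon. In all 3 the highest callus value came from replicate 1 of day 12, the next from replicate 1 of day 16, and the highest cotyledon value from replicate 3. The counts of Solyc01g160590.1 and Solyc02g160320.1 over the columns of length and library correlated at r = 0.995, a description over columns that share libraries, with totals of 2510 and 1808 reads. These 3 loci and Solyc04g160230.1 were the 4 called among callus days without the filter on low counts (edgeR adjusted p from 1.40e-06 to 0.000103). Solyc04g160230.1 had 57 of its 68 callus reads in replicate 2 of day 12.

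Solyc04g162680.1 had the largest fitted rise of the loci tested, a log2 change of 4.08 ± 1.23 SE (edgeR adjusted p = 0.0132), but its libraries overlapped. It held 0 to 146 reads in the callus libraries, with 0 in replicate 1 of day 14 and 3 in replicate 3 of day 16, against 0, 0 and 11 in cotyledon libraries. The fitted value of a locus with so many zeros depends on the fit's prior count and is no bound.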
